A study of Drosophila melanogaster with 6 samples.

Results

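In ovaries of flies with an insertion in upSET, 140 of the 15473 measured transcripts (0.905%) met a rule for transcripts that reached a set intensity on at least 1 wild-type array and stood far higher in the mutant. A transcript met it when at least 1 of the 3 wild-type arrays read 7 or more on the log2 scale, when the mutant mean exceeded the wild-type mean by 2 or more (a 4-fold ratio of intensities), and when every mutant array lay above every wild-type array. The wild-type group was the strain OregonG. The mutant group was the line upSETPBac{WH}CG9007e000365, in which a piggyBac transposon lies in upSET (CG9007, named epic in the design text). All flies were 2-day-old females, and total RNA of whole ovaries from 3 separate dissections of each genotype was hybridised to 1 single-colour array per dissection. The mutant is 1 insertion line compared with a separate strain, so the insertion and other differences between the strains cannot be told apart. Whether the insertion was homozygous is not given in the sources used here.

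upSET encodes a chromatin protein with a SET domain, related to yeast Set3 and mammalian MLL5. In Drosophila it is known as a partner of histone deacetylases that keeps histone acetylation and open chromatin confined around the promoters of active genes, and its loss is known to impair female fertility. The ovary joins germline cells (nurse cells and oocytes) with somatic follicle cells and a muscle sheath, and whole-ovary RNA pools them all. A rise in such a sample can come from more cells of a type or from more RNA per cell, which cannot be told apart here.

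The 140 transcripts are known by their FlyBase transcript identifiers, and none of them was among the 44 features that the gene table used here pairs with a gene name. No gene function, chromosome or sequence is therefore given for any of them, and whether some belong to the same gene is not known. The targeted gene itself and the 177 marker genes listed for ovarian and other cell types were not among the named features either, so neither the mutation nor the tissue was checked against its defining genes. The rule's level of 7 is a reading of intensity, not a detection call, and 30.6% of all features had a wild-type mean below it. Across the arrays the median level of all features ran from 11.18 to 11.27, and the number of arrays, 3 per genotype, limits the precision of every value.

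The rule used the difference between the genotypes, so the differences below are given as a description, with no test. Their median was 2.80, a ratio of 6.97, and their quartiles were 2.35 and 3.33. Over all features the median difference was -0.03, and over the 11246 features with a wild-type array at 7 or more it was also -0.03. The wild-type means of the 140 transcripts ran from 6.33 to 12.77 with a median of 8.05, and their mutant means ran from 8.72 to 15.52 with a median of 11.47. In the wild type 7 of the 140 exceeded the median feature, and in the mutant 73 did. By intensity rank among all features, the median transcript of the set moved from the 36.7th to the 51.1st percentile. These ranks are of probe intensity and do not order the transcripts by RNA amount.

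**Figure D1:**
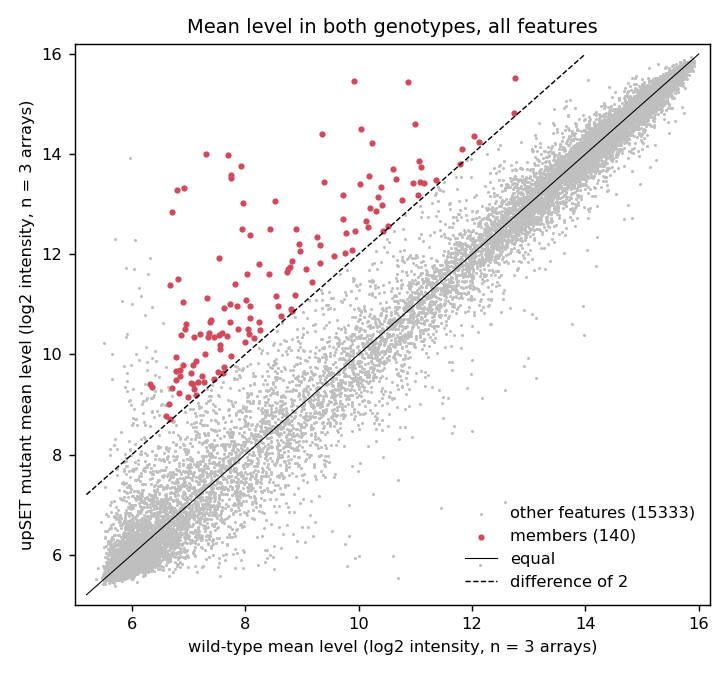
Mean level of every feature in the wild type (horizontal axis, log2 intensity, n = 3 arrays) and in the upSET mutant (vertical axis). The 140 transcripts, in red, lie on or above the dashed line for a difference of 2, with mutant means from 8.72 to 15.52; grey points above that line had all wild-type arrays below 7.

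Most of the set lay close to the lower limit on the difference, and a small number stood far above it. The difference was below 3 in 87 transcripts and at least 3 in 53. It was at least 4, a 16-fold ratio, in 22 of them, and at least 6 in 5. The 22 reached mutant means of 11.05 or more from wild-type means of 10.86 or less. Single transcripts are named by their place in the set. Apart from FBtr0084880, FBtr0081578 and those nearest the thresholds, they were chosen after their values were seen.

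The transcript with the widest difference, FBtr0084880, read 7.47, 7.16 and 7.28 on wild-type arrays 1 to 3 and 13.91, 14.04 and 14.04 on mutant arrays 1 to 3. The lowest mutant array lay 6.44 above the highest wild-type array, and the SD over 3 arrays was 0.15 for the wild type and 0.08 for the mutant. The difference was 6.69 (moderated SE 0.13), a ratio of 104. FBtr0081578 came next, with 7.09, 6.52 and 6.75 in the wild type and 12.92, 13.31 and 13.61 in the mutant, a difference of 6.49 (SE 0.21). Of its wild-type arrays only the first reached 7, so it entered the set through that array. FBtr0081406 was alike in this respect, since only wild-type array 2 reached 7 (6.83, 7.07 and 6.85), against 13.16, 13.41 and 13.40 in the mutant. Its difference was 6.41 (SE 0.13).

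FBtr0073206 read 7.53, 7.86 and 7.70 in the wild type and 13.71, 14.16 and 14.11 in the mutant, a difference of 6.30 (SE 0.16). All its wild-type arrays were above 7. FBtr0080690 read 7.66, 5.72 and 6.74 against 12.58, 13.38 and 12.58, a difference of 6.14 with a wider SE of 0.45. Its wild-type arrays spread over almost 2 log2 units, while the lowest mutant array still lay 4.93 above the highest of them. In FBtr0074560 and FBtr0077267 wild-type array 1 was the high one. FBtr0074560 read 8.64, 7.46 and 7.15 in the wild type against 13.61, 13.37 and 13.79 in the mutant, and FBtr0077267 read 8.68, 7.37 and 7.21 against 13.30, 13.62 and 13.62. Their differences were 5.84 and 5.76 (SE 0.35 each). Among the 8 widest differences, FBtr0077914 varied most on the mutant side, with 12.86, 14.04 and 14.43 over wild-type arrays at 8.13, 7.69 and 7.95, a difference of 5.85 (SE 0.36).

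A few transcripts came near the top of the measured range from wild-type means above the set's upper quartile of 9.77. The median wild-type level of all features was 11.19. FBtr0070490 went from 9.92 ± 0.12 (SD, n = 3) to 15.47 ± 0.22, with 9.82, 10.05 and 9.89 against 15.55, 15.22 and 15.63 on single arrays. FBtr0077152 went from 10.86 ± 0.17 to 15.44 ± 0.21, with 11.04, 10.85 and 10.71 against 15.43, 15.65 and 15.24. Their differences were 5.55 and 4.57 (SE 0.15 each), and the groups were over 4 log2 units apart in both. FBtr0085194 had the highest wild-type mean of the set, 12.77 ± 0.29, and also the highest mutant mean, 15.52 ± 0.25, a difference of 2.76 (SE 0.19). FBtr0087772 and FBtr0081422 followed in wild-type mean, at 12.74 ± 0.13 and 12.13 ± 0.37, with differences of 2.08 and 2.12. In all, 10 of the 140 lay above the upper quartile of all features in the mutant and none did in the wild type.

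**Figure D2:**
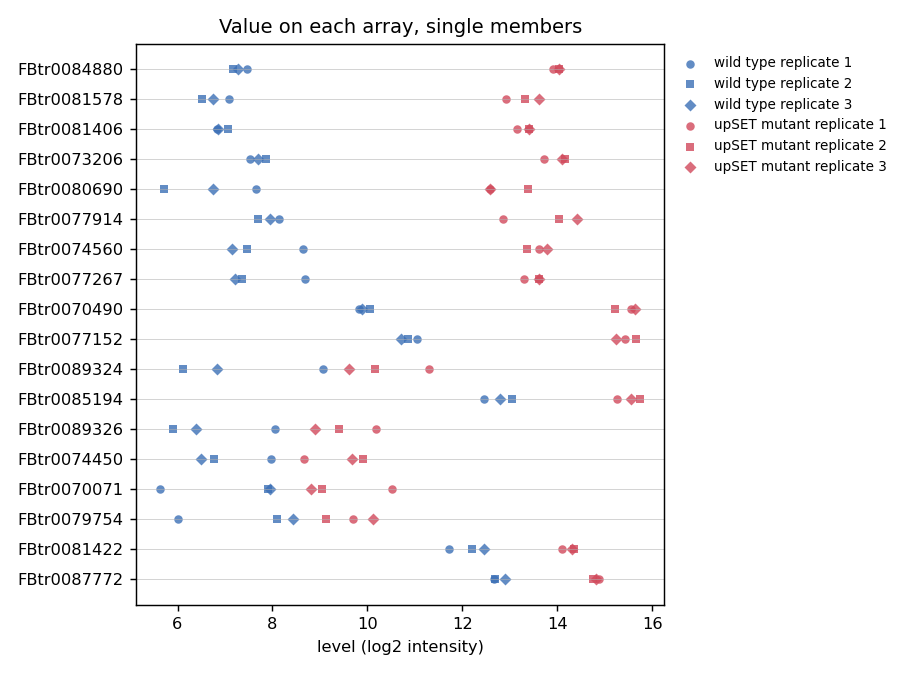
Value on each of the 6 arrays (horizontal axis, log2 intensity, marker shape for the replicate) for 18 transcripts with the widest differences, the highest levels or the smallest gaps between genotypes. In FBtr0084880 the groups lie 6.44 apart, and in FBtr0089324 they lie 0.55 apart.

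The upper end of the scale limits which transcripts could meet the rule. The highest value of any feature was 15.99, so a wild-type mean above 13.99, found in 4288 features (27.7%), left no room for a difference of 2. Among features with a wild-type array at 7 or more, the share that met the rule was 4.53% for wild-type means under 7 and 4.92% from 7 to 8. It was 3.96% from 8 to 9, 2.45% from 9 to 10, 2.80% from 10 to 11, 1.10% from 11 to 12 and 0.377% from 12 to 13. None of the 1812 features from 13 to 14 met it. The median difference of the transcripts that did was between 2.65 and 2.98 in each band up to 11 and was 2.27 from 11 to 12 and 2.23 from 12 to 13. All 22 transcripts with a difference of at least 4 had a wild-type mean below 11. The upper end of the scale bears on this too, since it leaves less room for a difference of 4 than for a difference of 2. The shares were not tested.

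**Figure D3:**
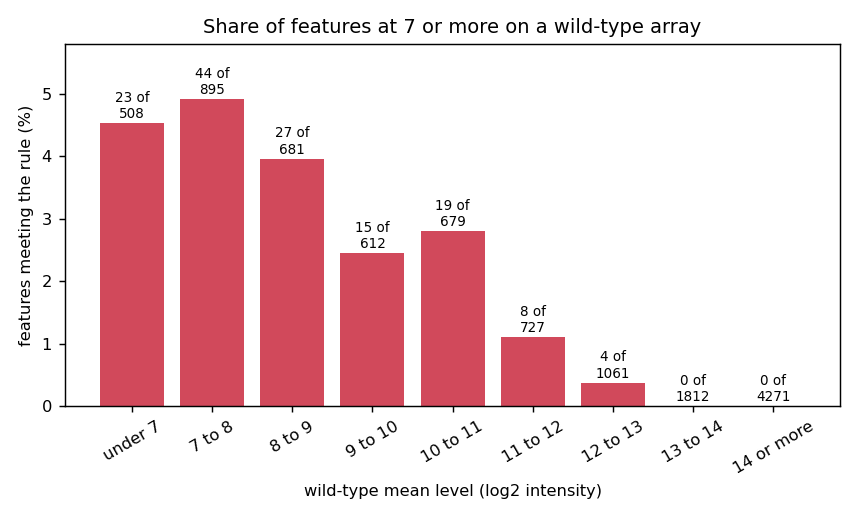
Share of features that met the rule (vertical axis, percent) by wild-type mean level (horizontal axis, log2 intensity), among features with at least 1 wild-type array at 7 or more. The number of transcripts and of features stands on each bar; the share is 4.92% from 7 to 8 and 0.377% from 12 to 13.

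The wild-type level was at or above 7 to an uneven degree over the set. All 3 wild-type arrays read 7 or more in 102 of the 140 transcripts, 2 arrays did in 15, and 1 array did in 23. In the last 23 the array at 7 or more was wild-type array 1 in 12, array 2 in 6 and array 3 in 5. The wild-type mean itself was below 7 in 23 transcripts. At the threshold on level, FBtr0081235 was just inside with a highest wild-type array of 7.01 (7.01, 6.44 and 6.51, against 8.82, 9.27 and 8.95 in the mutant). FBtr0083972 was just outside with a highest wild-type array of 6.99 and a difference of 2.88. At the threshold on the difference, FBtr0089392 and FBtr0077180 were just inside at 2.01 and FBtr0089235 and FBtr0072695 just outside at 1.99. The edges of the set thus pass between transcripts with nearly equal values.

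The gap between the lowest mutant and the highest wild-type array was 2.20 at the median and ran from 0.55 to 6.44. It was at least 1 in 134 of the 140 transcripts, at least 2 in 85 and at least 4 in 15. Non-overlap with the mutant on top was part of the rule, and 15.1% of all features showed it. The condition removed nothing, since all 140 features that met the level and the difference also had groups that did not overlap. In the limma fit over all features 139 of the 140 passed an adjusted p of 0.05, where 15.4% of all features passed in either direction and 8.05% passed as higher in the mutant. The rule used the same contrast, so nothing is read from this count. The transcript that missed the threshold was FBtr0070071, at a limma adjusted p of 0.054.

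**Figure D4:**
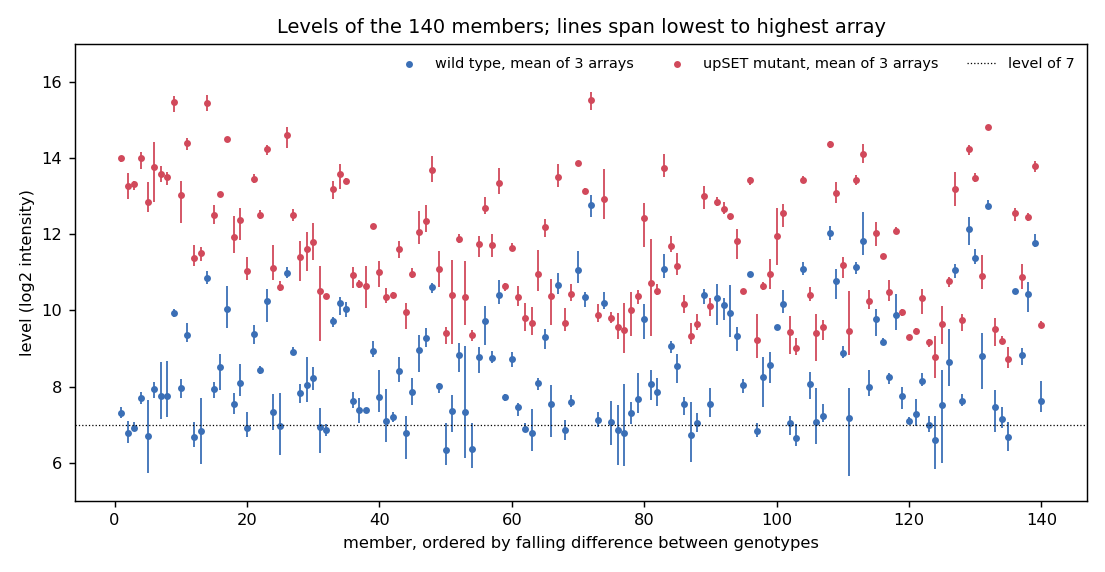
Levels of the 140 transcripts (vertical axis, log2 intensity), ordered from the widest to the narrowest difference between genotypes (horizontal axis). Points are means of 3 arrays and lines span the lowest to the highest array; the difference runs from 6.69 at the left to 2.01 at the right, and lines of the 2 genotypes overlap in no transcript.

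Spread within a genotype was not what the rule selected on, although the demand for 1 wild-type array at 7 bears on it. The median SD over the 3 wild-type arrays was 0.30 in the set and 0.16 in the other 15333 features, and over the 3 mutant arrays it was 0.26 and 0.16. Compared at like level, the median SD was higher in the set in 13 of 14 bands of level, 6 of 7 for the wild type and all 7 for the mutant. The contrast was widest for wild-type means below 7, at 0.58 in 23 transcripts of the set and 0.21 in 4712 other features, where the set had to hold 1 array at 7 or more. The exception was the band of wild-type means from 7 to 8, at 0.30 in 44 transcripts and 0.36 in 851 other features. From 8 to 9 it was 0.33 against 0.26, and from 10 to 11 it was 0.26 against 0.18. For mutant means the contrast ran from 0.42 against 0.25 in the band from 8 to 9, which held 2 transcripts, to 0.16 against 0.13 from 14 up. These medians run over features, which are not replicates, and were not tested.

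In 3 transcripts the arrays of each genotype lay within 0.2 of each other. FBtr0082935 read 9.19, 9.08 and 9.27 in the wild type and 11.41, 11.49 and 11.42 in the mutant, a difference of 2.26 (SE 0.12). FBtr0091649 read 7.62, 7.75 and 7.81 against 10.71, 10.52 and 10.71, a difference of 2.92 (SE 0.12). FBtr0100266, nearer the bottom of the scale, read 7.21, 7.04 and 7.05 against 9.23, 9.32 and 9.35, a difference of 2.20 (SE 0.12). Both genotypes spanned less than 1 log2 unit in 94 of the 140 transcripts. Of the others, 33 spanned at least 1 in the wild type, 22 did so in the mutant, and 9 of these did so in both.

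Wild-type array 1 stood apart from the other wild-type arrays in more transcripts of the set than any other array did from its group. It lay at least 1 log2 unit above the mean of the other 2 in 17 transcripts and at least 1 below it in 7, together 17.1% of the set. The rule bears on this count, since it asks for only 1 wild-type array at 7 or more. In 12 of the 140 transcripts that was wild-type array 1 alone. A deviation of at least 1 above or below the other 2 arrays was found in 5.00% of the set on wild-type array 2 and 4.29% on wild-type array 3. On mutant arrays 1, 2 and 3 it was found in 9.29%, 0.714% and 2.86%. Among 5023 other features with a wild-type array at 7 or more and a wild-type mean below 13, wild-type array 1 was off by 1 or more in 4.76%. The other wild-type arrays were off in 2.55% and 1.87% of them, and mutant arrays 1, 2 and 3 in 1.89%, 1.23% and 1.11%. Mutant array 1 was thus also off more often in the set than in these features, which were not matched to the set by level. The median deviation of wild-type array 1 over the set was -0.03, so it was not higher or lower as a whole. Across the 140 transcripts Pearson's r was 0.967 between wild-type arrays 2 and 3 and 0.885 and 0.893 between each of them and array 1. These r are over transcripts that the rule chose on the same arrays, and are a description.

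**Figure D5:**
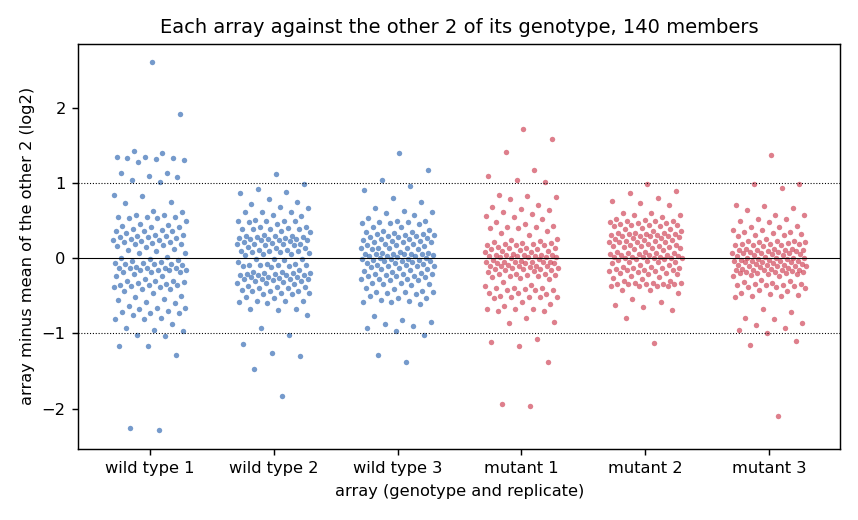
Each array minus the mean of the other 2 arrays of its genotype (vertical axis, log2) for the 140 transcripts (points) on the 6 arrays (horizontal axis). Wild-type array 1 has 17 points at least 1 above zero and 7 at least 1 below it, more than any other array; horizontal position within an array carries no meaning.

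The 5 transcripts with the smallest gaps all had wild-type array 1 at least 1 above or below the mean of the other 2. Beside a difference of 2 or more, a small gap requires arrays of a genotype to lie apart, so some deviating array follows from this ordering. FBtr0089324 read 9.07, 6.12 and 6.83 in the wild type and 11.30, 10.15 and 9.62 in the mutant, with a gap of 0.55 and a difference of 3.02 (SE 0.73). FBtr0089326, whose identifier lies close by, read 8.06, 5.91 and 6.38 against 10.19, 9.39 and 8.89, a difference of 2.71 (SE 0.54). In both, array 1 was the highest within each genotype. FBtr0070071 showed the opposite in the wild type, with 5.64, 7.91 and 7.95 against 10.51, 9.04 and 8.82, a difference of 2.29 (SE 0.66). FBtr0079754 was also low on wild-type array 1, with 6.00, 8.09 and 8.44 against 9.70, 9.12 and 10.12, a difference of 2.14 (SE 0.58). In FBtr0074450 wild-type array 1 was the high one, at 7.96 against 6.76 and 6.49, and mutant array 1 the low one, at 8.67 against 9.91 and 9.67.

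Without wild-type array 1 the difference was 1.53 in FBtr0070071 and 1.38 in FBtr0079754, below the rule's limit, and it was 3.88 in FBtr0089324. These 2 transcripts, FBtr0070071 and FBtr0079754, were the ones of the 140 in which leaving out any 1 array moved the difference by more than 1.5 times. Over the 17 transcripts in which array 1 was at least 1 above the others, the median difference was 3.08 with it and 3.61 without it. Over the 7 in which it was at least 1 below, the median difference was 2.29 with it and 1.77 without it. Both groups were picked by the position of array 1, so the direction of each shift follows from that choice. What set wild-type array 1 apart was not tested.

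Mutant arrays differed most from each other in 3 other transcripts. FBtr0078396 read 11.87, 10.99 and 9.32 on mutant arrays 1 to 3, over wild-type arrays at 7.65, 8.15 and 8.44. FBtr0079315 ran the other way, with 9.13, 10.80 and 11.33 over 6.82, 7.49 and 7.77. FBtr0087653 had mutant array 1 low, at 9.19 against 11.16 and 11.16, over wild-type arrays at 7.14, 7.43 and 6.26. In each of the 3 the lowest mutant array still lay above every wild-type array, by 0.88, 1.35 and 1.76. Their differences were 2.65, 3.06 and 3.56 (SE 0.56, 0.52 and 0.54), among the least precise of the set, whose median SE was 0.21.

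The 140 transcripts were spread over the whole order of identifiers, with 10 to 17 in each of 10 equal stretches of the table. In 11 cases 2 of them took adjacent places, so that 22 transcripts (15.7%) had a neighbour in the set. Among the 15333 features outside the set, 256 had a neighbour in the set, a far smaller share than the 15.7%. The even spread over the stretches thus does not extend to adjacent places, and the share was not tested. FBtr0071730 and FBtr0071731 had nearly the same difference, 3.57 and 3.62, from wild-type means of 8.23 and 10.99. FBtr0083325 and FBtr0083326 had differences of 2.64 and 2.94, and in both array 1 was the highest of each genotype. FBtr0083025 and FBtr0083026 differed most among the 11, at 4.29 and 2.26. The differences lay within 0.5 of each other in 7 of the 11 cases, and in none were the levels of the 2 transcripts within 0.5 on every array. Adjacent identifiers may be neighbouring genes or forms of 1 gene, which was not settled here.

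The 256 features that stood next to a transcript of the set without meeting the rule had a median difference of -0.01. By limma at an adjusted p of 0.05, 30 of them (11.7%) were higher in the mutant, where 8.05% of all features were, and 14 (5.47%) were lower, where 7.30% of all features were. A difference of 1 or more was found in 8.20% of them and in 3.87% of all features outside the set. These shares were not matched by level and were not tested.

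A difference of 2 or more was found in 233 features, of which the 140 make up 60.1%. The other 93 had all wild-type arrays below 7. Their median difference was 2.85, close to the 2.80 of the set, and their median mutant level was 9.18, where that of the set was 11.47. The difference was at least 4 in 19.4% of them and in 15.7% of the set. With the genotypes exchanged, the same rule gave 46 features that were lower in the mutant, with a median difference of -2.45. Of these, 2 (4.35%) were lower by 4 or more. These shares follow from rules on the same values and were not tested against each other.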

How the data were processed

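Total RNA was labelled with Cy3, hybridised to NimbleGen arrays with 4 probes of 60 bases per target, scanned, and extracted with NimbleScan 2.4, per the labels' protocols. The authors deposited 1 log2 value per feature and array, made with RMA per the submitters' processing notes. The RMA settings, genome build and array annotation are not given in the labels. The scale was taken as log2 because the values end just below the ceiling of a 16-bit scanner. Scanner files, detection calls, slides and scan dates were not used here, and no check for batches was made.

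The members and lists were chosen with earlier results of these data known. The rule was applied to the deposited values. The transcripts named were upSET where a table named it, every transcript with a gene name, the 2 widest differences, and those nearest each threshold; all others were added after their values were seen. A limma 3.58.1 fit in R 4.3.3 (lmFit, then eBayes at its defaults, with neither filter nor block) over 15473 features gave moderated standard errors and Benjamini-Hochberg adjusted p-values, two-sided. The fit was tested on simulated data. Names were sought in a RefSeq gene table (Release 6 plus ISO1 MT). Alternatives were quantile normalization, median centring, other thresholds, a trended and robust variance, a filter on dim features, the replicate number as a block, and leaving out each array.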

Additional observations from a re-analysis of the deposited data

How the results depend on the processing

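The number of transcripts that met the rule was 139 after quantile normalization and 140 after median centring, with 135 and 137 of the original 140 among them. Leaving out 1 array at a time gave 126 to 148. The low count of 126 came without wild-type replicate 1, where 22 of the 140 were lost, 12 because both other wild-type arrays read below 7 and 10 because the difference was under 2. Of the 140, 104 met the rule whichever array was left out. Moving the thresholds moved the count by construction. A difference of at least 1.5 gave 258 transcripts, a difference of at least 3 gave 53, a wild-type level of at least 8 on 1 array gave 89, and 7 on all 3 wild-type arrays gave 102. The median difference of the 140, 2.80, was 2.75 and 2.76 under the scalings and 2.74 to 2.83 without each array. The members passing the limma threshold numbered 136 to 140 in every fit at an adjusted p of 0.05 and 135 at 0.01. The rule used the same contrast on the same arrays, so nothing is read from these counts. Over all features 2376 passed, 1240 at an adjusted p under 0.01, and 1692 to 2178 without each array. After quantile normalization 2423 passed, after median centring 2420, and with a trended and robust variance 2661. With the replicate number as a block 1939 features and 139 members passed. Same-numbered arrays did not deviate together (r of -0.04, -0.06 and -0.03 over all features), so the samples were treated as unpaired. Differences under the scalings or without 1 array were followed in 52 transcripts set aside by level, difference, spread, gap or adjacency. Of these differences 414 stayed within the spread between arrays, 2 moved beyond it and none changed sign. The 2 were those of FBtr0082935 and FBtr0100266 after quantile normalization, at 2.18 and 2.08, where the arrays of each genotype lay close together. Leaving out 1 of 3 arrays cannot move a difference beyond the spread of those same arrays. FBtr0079754 thus counted as within it at 1.38 without wild-type array 1. In all 52 every mutant array lay above every wild-type array, so leaving out 1 array could not change a sign either. Nothing is read from the leave-one-out part of these counts. Signal over background was not measured.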
